A study of Rattus norvegicus with 43 samples.

Results

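Mammary gland and liver of untreated rats were compared in the 4 mammary gland arrays and the 4 liver arrays of the diet-only animals, 8 of the 43 arrays of the series, over all 8740 probe sets that are not array controls. The members were chosen by sample label alone: every diet-only sample of these organs was taken. The rats were female Sprague-Dawley, an outbred laboratory strain, and received diet only for 7 days from an age of 100 days. The same series holds mammary gland and liver of rats given one of 3 retinoid agents: Targretin, which binds retinoid X receptors, at a gavage dose of 60 mg/kg, 9-cis retinoic acid (9cRA) in the feed at 100 mg/kg, or 4-hydroxyphenylretinamide (4HPR) in the feed at 782 mg/kg, with 3 or 4 arrays per organ and agent, and 3 arrays of untreated lung. All groups share the strain, sex, age and length of treatment. The tissues were whole organ samples from normal animals. The labels do not give the reproductive state of the rats, do not say whether fat was removed from the gland, and do not say that arrays of 1 group came from separate animals, so p-values measure the spread between these samples.

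The mammary gland of an adult female is a tree of epithelial ducts set in a pad of fat. The ducts have an inner layer of luminal cells, which can make milk proteins, and an outer layer of contractile myoepithelial cells, and the pad holds adipocytes, fibroblasts, vessels, nerves and immune cells. The liver is mostly hepatocytes, which make the blood plasma proteins, bile acids and urea, release glucose, and oxidise drugs and hormones with cytochrome P450 enzymes. Both organs make fat, the liver for export in lipoproteins and the adipocyte for storage. In such bulk samples, fewer cells of a type and less RNA per cell cannot be told apart.

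The promoters of 4 members are shown with a short motif just before the start. The motif TTCNNNGAA is the core recognised by STAT factors, which carry prolactin and growth hormone signals, and GTTAAT belongs to the motif of HNF1, a liver-enriched transcription factor. Shown are 2 casein genes, which were higher in mammary gland, and 2 plasma protein genes, which were lower, each with the motif in capitals and 25 bases on either side. The sequences come from RefSeq, build GRCr8, and are printed 5′ to 3′ on the strand of the gene. Csn2 lies at chr14:20601702-20601760 on the plus strand, with the motif 97 to 89 bases before the start. Csn1s1 lies at chr14:20638916-20638974 on the minus strand, with the motif 100 to 92 bases before the start. Alb lies at chr14:17907031-17907086 on the minus strand, with the motif 82 to 77 bases before the start. Fgb lies at chr2:170700935-170700990 on the minus strand, with the motif 90 to 85 bases before the start.
Csn2: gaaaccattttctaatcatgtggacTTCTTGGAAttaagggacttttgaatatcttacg
Csn1s1: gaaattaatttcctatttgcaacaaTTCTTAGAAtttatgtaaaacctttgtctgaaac
Alb: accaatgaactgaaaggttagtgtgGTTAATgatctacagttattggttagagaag
Fgb: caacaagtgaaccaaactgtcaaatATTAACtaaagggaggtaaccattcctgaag
In Fgb the motif lies on the other strand and reads ATTAAC. Over the 250 bases before the start, TTCNNNGAA on either strand occurred in 4 of the 13 promoters of the milk protein list (30.8%), which were Csn2, Csn1s1, Csn1s2a and Glycam1, against 7.52% of all 27457 rat promoters in the table. It occurred in 6 of the 23 plasma protein promoters found there (26.1%). GTTAAT also occurred in 6 of those 23 (26.1%), and in 2 of the 13 milk protein promoters (15.4%), against 6.46% of all. The C/EBP motif TTGCNNAA occurred in 10 of the 23 (43.5%) and in 2 of the 13 (15.4%), against 9.20% of all. The HNF4 motif CAAAGTCCA occurred in none of either list and in 0.331% of all. Of 14 adipocyte and 20 matrix protein promoters, none held GTTAAT, 2 of each held TTGCNNAA and 2 of each held TTCNNNGAA. The 8-base and 9-base motifs with free positions can overlap each other. Matches are descriptions of these windows and not sites of binding.

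The organs differed over most of the array. Of 5973 probe sets with signal above the filter, 3724 passed at an adjusted p under 0.05, which is 62.3%: 2152 were higher in mammary gland (36%) and 1572 were lower (26.3%). A further test asked for a difference of more than 2-fold, and 1674 probe sets passed it (28%), with 936 higher (15.7%) and 738 lower (12.4%). Of the 3724, 3349 had no overlap between the arrays of the organs, a count made only among probe sets that had already passed. The largest differences ran the other way: 127 passing probe sets were over 16-fold higher in mammary gland on the log2 scale used here and 206 were over 16-fold lower. That scale is log2 of the signal plus 39.9, which understates the difference of dim probe sets. The median difference over all tested probe sets was 0.11 in log2, and it was 0.02 after quantile normalization, under which 54.0% of passing probe sets were higher in place of 57.8%. Counted by gene with 1 probe set each, 39.97% of 3543 tested genes were higher and 22.4% were lower, with a median of 0.25. Correlations of log2 signal between arrays were 0.937 to 0.963 within mammary gland and 0.951 to 0.974 within liver, against 0.694 to 0.764 between the organs. The median signal was 353.8 to 402.2 on mammary gland arrays and 339.3 to 390.6 on liver arrays. Levels below are MAS5 signals, and log2 differences are mammary gland minus liver with the SE.

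**Figure D1:**
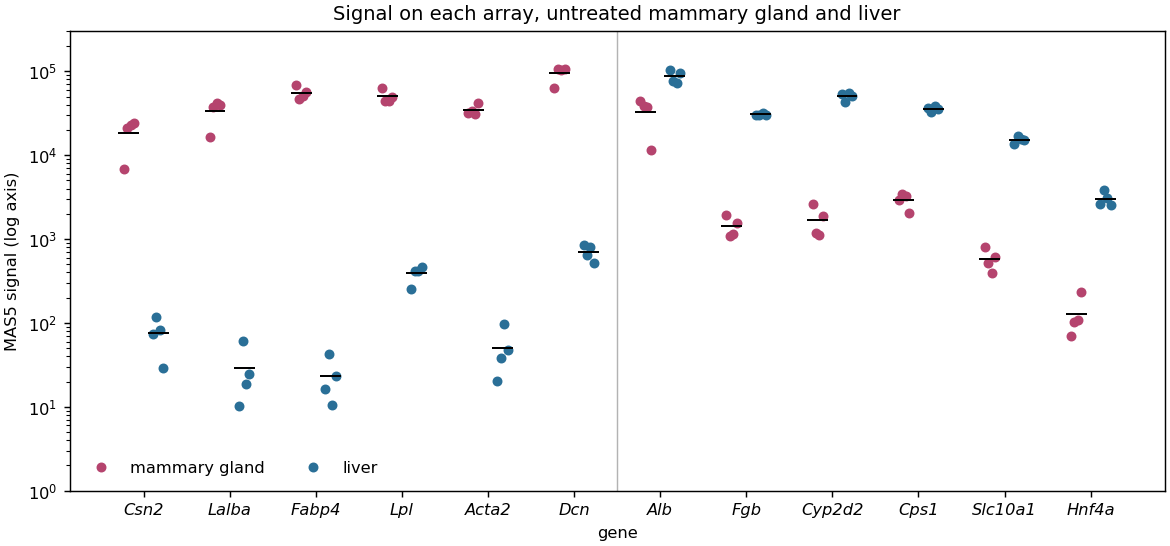
Each point is the MAS5 signal of a gene on 1 array, on a log axis, for 4 mammary gland arrays (left of each pair) and 4 liver arrays (right), and the bars are means. The 12 genes were picked from those that passed, and the organs do not overlap for any of them. Mammary gland array 1 is the lowest of its group for Csn2, Lalba and Dcn.

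The labelled tissues carried their defining markers. The summed signal of 5 milk protein genes was 134773 to 212178 on mammary gland arrays and 540.5 to 999.4 on liver arrays. That of 7 adipocyte markers was 189536 to 268797 in mammary gland and 5942 to 7529 in liver, and that of 6 fibroblast markers was 243433 to 280707 in mammary gland and 5444 to 6375 in liver. Of the 7 adipocyte markers 6 were higher. The other, Lep, did not pass, had similar signals in both organs and gave a large part of the liver sum. The 6 hepatocyte markers summed to 42299.8 to 86572 on mammary gland arrays, not near 0, and to 271795 to 333166 on liver arrays.

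Milk protein genes were expressed in these glands. Of 13 genes of milk proteins and secretory epithelium, 12 were higher in mammary gland and 1 was lower, with a median difference of 3.47. Lalba (alpha-lactalbumin, the regulator of lactose synthesis) had signals of 16578, 37281, 42238 and 39171 on the mammary gland arrays and 10.2, 61.2, 18.9 and 24.3 on the liver arrays. Array 1 was the lowest of the mammary group and the organs did not overlap. The difference was at least 144-fold (8.91 ± 0.31 in log2, adjusted p = 6.54e-10), where "at least" sets the dim organ at the 40th percentile of its arrays. Caseins carry calcium and phosphate in milk. Beta-casein, Csn2, had 6772, 20879, 22619.9 and 23879.6 in mammary gland and 73.6, 117, 82.8 and 28.8 in liver, a difference of 7.23 ± 0.39. Alpha-S1-casein, Csn1s1, had 55000.5, 59872, 59741 and 78482 in mammary gland and 109, 318, 21.4 and 50.9 in liver. Both it and Csn2 were highest on mammary gland array 4. Kappa-casein, Csn3, differed by 8.21 ± 0.23. Whey acidic protein, Wap, averaged 8788 ± 5418 in mammary gland and 253 ± 70.0 in liver (SD, n = 4 each, as for all means here). Lcn2, an iron-siderophore binding protein, averaged 14076 ± 5177 in mammary gland and 342 ± 106 in liver. The 1 member that was lower was Prlr, the prolactin receptor, with 499, 214, 298 and 263 in mammary gland and 7544, 4588, 5566 and 7486 in liver (-4.17 ± 0.26, adjusted p = 4.29e-08). Stat5a, which relays the signal of that receptor, was higher, at 1107 ± 183 in mammary gland and 213 ± 134 in liver, whereas its close relative Stat5b did not pass, with a difference of 0.08 ± 0.30.

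Epithelial genes other than those of milk were also higher. Of 15 luminal and general epithelial genes tested, 10 were higher, 1 was lower and the median was 1.51. Cd24, a surface glycoprotein of luminal cells, had 13103, 30502, 32479 and 26739.5 in mammary gland and 259.7, 239, 305 and 307 in liver. Areg (amphiregulin, a ligand of the EGF receptor) had 6801, 15136, 14337 and 4101 in mammary gland and 104, 275, 98.6 and 194 in liver, and arrays 2 and 3 were the high ones. Ezr, Krt19 and Epcam, an actin linker, a keratin of ducts and an adhesion molecule, differed by 5.09 ± 0.23, 4.35 ± 0.25 and 3.48 ± 0.21. Keratins Krt8 and Krt18, which hepatocytes also make, did not pass, at -0.34 ± 0.27 and 0.19 ± 0.20. Erbb3, a receptor of neuregulins, was the 1 lower member, with 292 ± 56.9 in mammary gland and 1044 ± 210.3 in liver. Of 9 basal and myoepithelial genes, 8 were higher with a median of 3.06. Acta2, smooth muscle actin, had 31878, 33972, 30598 and 42280.4 in mammary gland and 20.5, 37.7, 96.1 and 47.5 in liver, at least 147-fold apart. The basal keratins Krt5 and Krt14 averaged 3328 ± 301 and 2001 ± 243 in mammary gland, against 65 ± 58.4 and 216 ± 87.6 in liver. Contractile genes of smooth muscle, which vessels share with myoepithelium, were higher in 8 of 9 cases, with Acta2, Cnn1 and Myh11 on both lists. Skeletal muscle genes were not raised as a list: of 12 tested 3 were higher (25%) and none was lower, with a median of 0.05. Over all genes 39.97% were higher and 22.4% lower. The largest difference among the 12 was that of Acta1, at 699 ± 339.8 in mammary gland and 36.2 ± 35.8 in liver.

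Genes of the adipocyte were among the largest differences. Of 21 adipocyte genes tested, 16 were higher, none was lower and the median was 2.70. Fabp4, the fatty acid binding protein of adipocytes, had 68424, 46453, 50918 and 56908 in mammary gland and 16.1, 42.1, 10.4 and 23.6 in liver. It had the largest difference of any passing gene with 1 symbol, at least 237-fold (9.80 ± 0.20 in log2, adjusted p = 3.6e-11). Lpl (lipoprotein lipase, which releases fatty acids from circulating triglyceride) had 64036, 43879, 44535 and 49494 in mammary gland and 254, 417, 418 and 469.5 in liver. Cfd (adipsin, a complement protease secreted by fat) averaged 95132 ± 13989 in mammary gland and 1229 ± 217 in liver. Sncg (gamma-synuclein), Lipe (hormone-sensitive lipase) and Pparg (the receptor that directs fat cell formation) differed by 7.97 ± 0.21, 4.48 ± 0.25 and 4.10 ± 0.58. Lep (leptin, the fat cell hormone) did not pass: its probe set had 4445 ± 909.8 in mammary gland, 4669 ± 680.2 in liver and 4977 ± 568 in lung (n = 3). Cd36, a fatty acid carrier, also did not pass, at 0.35 ± 0.29.

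Matrix genes were also mostly higher in mammary gland. Of 32 collagen and matrix genes, 24 were higher and 1 was lower, with a median of 2.22. Dcn (decorin, which binds collagen fibrils) had 63079.5, 105741, 104049 and 106715 in mammary gland and 843, 642, 808 and 525 in liver. Postn (periostin) had 26624, 22986, 23992 and 32936 in mammary gland and 58.1, 37.1, 8.8 and 11.2 in liver, at least 113-fold apart. The chains of type I collagen, Col1a1 and Col1a2, differed by 5.97 ± 0.21 and 5.67 ± 0.24, and the gelatinase Mmp2 by 5.80 ± 0.26. Of 11 fibroblast markers, 10 were higher with a median of 4.54, among them Vim (vimentin, 6.03 ± 0.15) and Thy1 (5.86 ± 0.23), which T cells and nerves also make. Pdgfrb, a receptor of pericytes and fibroblasts, did not pass, at -0.40 ± 0.33.

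**Figure D2:**
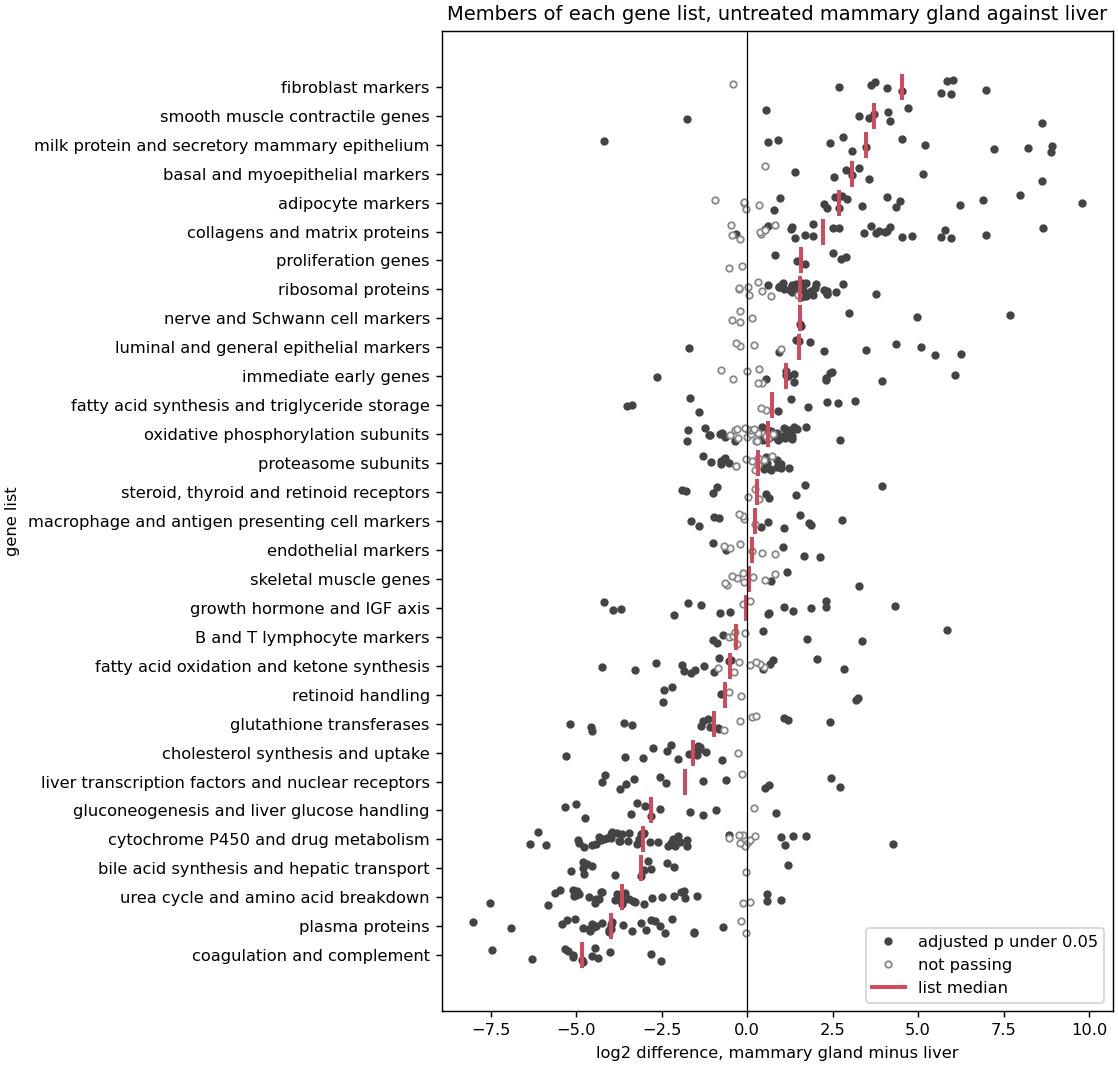
Each point is 1 gene of a list, placed at its log2 difference (mammary gland minus liver); filled points passed at an adjusted p under 0.05 and the bars are list medians. Medians run from -4.82 for coagulation and complement to 4.54 for fibroblast markers, and the macrophage, lymphocyte, endothelial and receptor lists lie between -0.33 and 0.29.

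Immune, vascular and nerve genes divided. Nerve and Schwann cell genes were higher in 5 of 9 cases (55.6%) and lower in none, against 39.97% higher and 22.4% lower over all genes. S100b, made by Schwann cells and also by adipocytes, had 25373, 16663, 22618 and 17252 in mammary gland and 32.9, 144, 36 and 51.5 in liver, Pmp22 (a myelin protein that fibroblasts also make) differed by 4.98 ± 0.23, and Sox10 (the Schwann cell transcription factor) by 2.98 ± 0.38. Mast cell and granulocyte genes were higher in 4 of the 6 tested (66.7%) and lower in none, against the same shares of all genes, with 9 of the 15 measured below the filter. Cpa3, the mast cell carboxypeptidase, had 3092, 5628, 5102 and 5095 in mammary gland and 184, 220.2, 275 and 264 in liver, and Cma1, chymase, differed by 2.93 ± 0.22. Of 15 macrophage and antigen presentation genes, 7 were higher (46.7%) and 4 lower (26.7%), near the 39.97% and 22.4% of all genes. Lysozyme, Lyz2, was higher, at 18908 ± 5357 in mammary gland and 2663 ± 463 in liver, and the inhibitory Fc receptor Fcgr2b was lower, at 1149 ± 341 in mammary gland and 3518 ± 572 in liver. Clec4f, a lectin that marks Kupffer cells, the resident macrophages of liver, had 237, 77.2, 281 and 159 in mammary gland and 5989, 4925, 5604 and 4573 in liver. Of 12 lymphocyte genes 4 were higher and 3 lower, and of 11 endothelial genes 3 were higher and 2 lower, against 39.97% higher and 22.4% lower over all genes. Aqp1, a water channel of capillaries, was higher at 2.14 ± 0.20. Erythroid genes, those of red blood cells, were lower in 4 of 5 cases. Beta-globin, Hbb, had 19851, 13697, 13208 and 14183 in mammary gland and 52431, 37109, 65025 and 41694 in liver. The source of this RNA in the samples was not tested.

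Plasma protein genes were the reverse. Of 31 measured, 29 were lower in mammary gland and none was higher, with a median of -3.97, and all 14 genes of coagulation and complement were lower, with a median of -4.82. Mug1 (murinoglobulin, a protease inhibitor of rodent plasma) had 160.0, 67.2, 11.5 and 55.4 in mammary gland and 31606, 22064, 30643 and 22065 in liver, at least 112-fold apart (-8.02 ± 0.34 in log2). Plg (plasminogen) had 70.5, 56.4, 34.9 and 61.6 in mammary gland and 18037, 16389.7, 18703 and 13682 in liver. C8b, a subunit of the membrane attack complex, differed by -6.28 ± 0.17, and Proc, the anticoagulant protein C, by -5.33 ± 0.26. Fgb, the fibrinogen beta chain, had 1932, 1074, 1154 and 1538 in mammary gland and 30119, 30436, 31412 and 30202 in liver. Azgp1 (zinc-alpha-2-glycoprotein) had 481, 51.6, 20.6 and 40.1 in mammary gland and 14490.3, 16884, 13604 and 14454 in liver, and array 1 was the high one of the mammary group by several times. Albumin, Alb, was closer: 43645, 39024, 37890.0 and 11379 in mammary gland and 103130.0, 75743, 72847 and 95828 in liver, a difference of -1.55 ± 0.35 (adjusted p = 0.0023), which did not pass in a fit of all 43 arrays (adjusted p = 0.0689). The members that did not pass were A2m (alpha-2-macroglobulin, -0.02 ± 0.17) and Rbp4 (retinol binding protein, -0.18 ± 0.12). After quantile normalization Rbp4 passed as lower, at -0.44 (adjusted p = 0.00334).

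Enzymes of drug and hormone oxidation followed. Of 52 cytochrome P450 and drug metabolism genes tested, 38 were lower and 5 were higher, with a median of -3.03. Cyp1a2 had 701, 89.5, 279 and 365 in mammary gland and 27909, 29005, 25473 and 25233 in liver, on the brightest of its probe sets. Cyp2d2 had 2609, 1178, 1119 and 1884 in mammary gland and 53034, 43213, 54907 and 50520.1 in liver. Ugt2b35 (a UDP-glucuronosyltransferase) and Aldh3a2 (fatty aldehyde dehydrogenase) differed by -6.10 ± 0.58 and -5.87 ± 0.24. Cyp1b1, the P450 of tissues outside the liver that hydroxylates oestradiol, was the largest of the 5 higher, with 842, 1824, 1496 and 660.5 in mammary gland and 28.7, 30.4, 11.6 and 10.8 in liver. Of 18 glutathione transferase and synthesis genes, 11 were lower and 3 were higher: Gstm1 was lower at -5.18 ± 0.23, Gstp1, the form of non-hepatic tissue, was higher at 1.20 ± 0.26, and Mgst1 did not pass, at 80996 ± 17899 in mammary gland and 71611 ± 8383 in liver. Members of these families share sequence, and probe sets can cross-hybridise.

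Bile acid, urea and sugar genes were lower in nearly every case. Of 15 bile acid genes, 13 were lower and 1 was higher. Cyp7a1 (the rate-limiting enzyme of bile acid synthesis) had 141, 94.8, 96.5 and 630.0 in mammary gland and 5282, 3288, 5138 and 6994 in liver, and Slc10a1 (the uptake carrier for bile salts) had 806, 516, 393 and 612 in mammary gland and 13689, 16951, 15705 and 15108 in liver. The higher member was Cyp7b1, an oxysterol hydroxylase found in several tissues, at 1.19 ± 0.22. Of 38 urea cycle and amino acid genes, 33 were lower and 3 were higher. Ass1 (argininosuccinate synthase) had 391, 72.4, 38.8 and 214 in mammary gland and 32132, 31242, 30567 and 36370.2 in liver, and Cps1 (carbamoyl phosphate synthetase, the first enzyme of the cycle) had 2947, 3451, 3240.1 and 2021 in mammary gland and 36098, 32282, 38076 and 35696 in liver. Tdo2, which opens the ring of tryptophan, and Tat, which removes the amino group of tyrosine, differed by -5.46 ± 0.23 and -5.09 ± 0.42. Of 13 genes of glucose release and sugar handling, 11 were lower. Fbp1 (fructose bisphosphatase) differed by -4.75 ± 0.16 and Sord (sorbitol dehydrogenase) by -5.00 ± 0.27. Pc (pyruvate carboxylase, which also feeds fat synthesis in adipocytes) was the 1 higher member, with 8127, 4763, 5817 and 6703 in mammary gland and 3505, 3577, 3724 and 2999.8 in liver.

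Transcription factors of the liver were mostly lower in mammary gland. Of 14 tested, 9 were lower and 4 were higher. Hnf4a, the nuclear receptor that directs hepatocyte genes, had 69.1, 104, 108 and 234 in mammary gland and 2613, 3842, 3102 and 2539 in liver. Onecut1 (HNF6), Cebpa (C/EBP alpha), Foxa2 and Nr1h4 (the bile acid receptor) differed by -4.16 ± 0.25, -3.72 ± 0.25, -3.55 ± 0.30 and -3.31 ± 0.37. Cebpa is also known from adipocytes, yet its probe set averaged 101 ± 45.2 in mammary gland, and 1756 ± 146 in liver. Cebpd (C/EBP delta) was higher, at 1673 ± 439 in mammary gland and 225 ± 80.4 in liver, as was Nr2f1 (COUP-TFI), at 2.44 ± 0.35.

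Lipid genes split by pathway. Cholesterol synthesis was lower: 15 of 16 genes were lower, none was higher and the median was -1.58. Fdps (farnesyl diphosphate synthase) had 1027, 66.7, 328 and 812 in mammary gland and 18369, 13039, 14006 and 24830.1 in liver, and Fdft1 (squalene synthase) differed by -3.56 ± 0.54. Insig1, which holds back the pathway, did not pass, at -0.26 ± 0.22. Fatty acid synthesis and storage went both ways, with 6 of 12 higher (50%) and 4 lower (33.3%), against 39.97% and 22.4% of all genes. Scd (stearoyl-CoA desaturase) had 108430.0, 76835, 78886 and 76370.3 in mammary gland and 10142, 5955, 16240.3 and 8052 in liver, and Me1 (malic enzyme, a source of NADPH) had 16178, 10654, 9637 and 11917 in mammary gland and 1745, 1448, 2049.7 and 2239 in liver. Fasn (fatty acid synthase) had 25513, 7589.7, 6910.3 and 17006 in mammary gland and 2870.1, 3219, 3752 and 4489 in liver, with arrays 1 and 4 the high ones, but its other probe set passed in the opposite direction. Gpam and Gpd1, which make the glycerol backbone of triglyceride, were lower, with 191 ± 146 and 229 ± 65.5 in mammary gland, against 2304 ± 352 and 2718 ± 506 in liver. Of 24 fatty acid oxidation and ketone genes, 12 were lower and 5 were higher. Bdh1 (of ketone body synthesis) and Acadvl (the very long chain acyl-CoA dehydrogenase) differed by -4.24 ± 0.18 and -3.29 ± 0.31, and Pex11a (of peroxisome division) was higher at 2.05 ± 0.30.

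Many enzymes, carriers, binding proteins and receptors have a form or family member of liver, or of non-muscle tissue, and another form or member. Of 16 such pairs with both forms measured, the first form was lower in 7 and the second was higher in 11, and both held in 5. Both forms were above the filter in 12 of the pairs, with 14 first forms and 14 second forms tested, and over all genes 22.4% were lower and 39.97% higher. The 5 were Fabp1 with Fabp4, Slc2a2 with Slc2a4, Pklr with Pkm, Lipc with Lpl, and Igfbp1 with Igfbp5. Fabp1, the fatty acid binding protein of liver, had 5408, 3432, 3548 and 4076 in mammary gland and 61366, 53727, 58902 and 57538 in liver. Slc2a2 (GLUT2, the carrier of hepatocytes) had 284, 286, 217 and 229 in mammary gland and 10657, 11818, 13326 and 11431 in liver, and Slc2a4 (GLUT4, the insulin-responsive carrier) had 2598, 985, 1201 and 1534 in mammary gland and 195, 357, 139.9 and 106 in liver. Pyruvate kinase of liver, Pklr, differed by -2.54 ± 0.30, and Pkm, that of other tissues, by 2.97 ± 0.25. Hepatic lipase, Lipc, had 548 ± 70.1 in mammary gland and 10574 ± 341 in liver. Both forms moved together in 2 pairs: Mat1a and Mat2a, which make S-adenosylmethionine, were both lower (-5.62 ± 0.34 and -1.26 ± 0.33), and Scd and Scd2 were both higher, although the probe sets of Scd2 disagreed. Ldhb, the heart form of lactate dehydrogenase, had 18165, 19338, 24018 and 16068 in mammary gland and 43.8, 197, 14.4 and 61.5 in liver. Gjb1, the gap junction protein of hepatocytes, had 309 ± 93 in mammary gland and 13032 ± 1209 in liver.

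**Figure D3:**
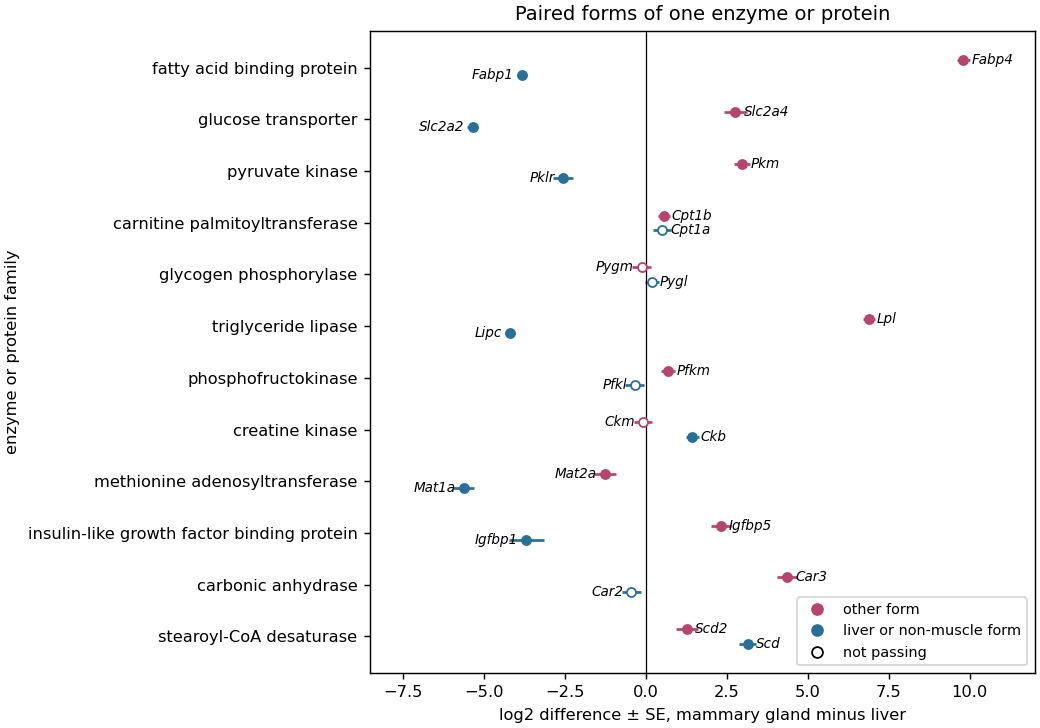
Log2 difference (mammary gland minus liver) with its SE for each family with both forms tested; the upper point of each family is the other form and the lower point the liver or non-muscle form, and open points did not pass. In 5 families the points lie on opposite sides of 0 and both passed.

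The axis of growth hormone and insulin-like growth factors was split between the organs, with 8 of 18 genes higher and 8 lower. These were 44.4% each, against 39.97% higher and 22.4% lower over all genes. Igf1 itself was lower but not by much, with 13229.7, 5770.0, 6954 and 10808 in mammary gland and 17964, 12374, 12927 and 17368 in liver, and the ranges overlapped on 1 mammary array (-0.78 ± 0.25, adjusted p = 0.017). Its call was lost without liver array 1 (adjusted p = 0.0528) and without liver array 4 (adjusted p = 0.0503). Igfals, which holds IGF in the blood, had 622 ± 108 in mammary gland and 9867 ± 881 in liver, and Igfbp1 had 351, 89.8, 56.2 and 268 in mammary gland and 1313, 1722, 7096 and 2362 in liver. Igfbp6, a binding protein with preference for IGF-II, was higher, with 9338, 6582, 5742 and 12086 in mammary gland and 533, 132, 429 and 564 in liver.

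Receptors of retinoids, the class of the agents of the series, and of other hormones were measured in both organs without the agents. Of 12 steroid, thyroid and retinoid receptors tested, 5 were higher (41.7%) and 4 lower (33.3%), against 39.97% and 22.4% of all genes. Rxra, the retinoid X receptor of liver, had 311, 334, 177 and 176 in mammary gland and 1207, 807, 1272 and 854 in liver. Rxrg had 1585 ± 182 in mammary gland and 2961 ± 452 in liver and passed as lower, and Rxrb did not pass, at 0.24 ± 0.22. The retinoic acid receptors Rara and Rarb were lower, at -1.01 ± 0.23 and -1.80 ± 0.34. Thra, the thyroid receptor of tissues other than liver, had 3168, 2965, 2679 and 2589.6 in mammary gland and 147, 225, 95.2 and 139.9 in liver, and Vdr and Pgr, the vitamin D and progesterone receptors, differed by 1.70 ± 0.28 and 1.44 ± 0.27. Esr1, the oestrogen receptor alpha, was below the filter, at 54.7 ± 18.2 in mammary gland and 204 ± 88.8 in liver. Among 8 tested genes of retinoid handling, 2 were higher (25%) and 4 lower (50%). Both higher ones were the cellular binding proteins of retinoic acid: Crabp1 had 892, 936, 768 and 1408 in mammary gland and 45.7, 108, 62.4 and 81.8 in liver, and Crabp2 had 834, 610.1, 753 and 1299.6 in mammary gland and 23.4, 110.2, 21.8 and 90.6 in liver. Aldh1a1 (retinal dehydrogenase) and Rdh7 (a retinol dehydrogenase) were lower, at -2.45 ± 0.17 and -2.42 ± 0.24. Rbp4, made by hepatocytes and by adipocytes, had 44956, 34386, 37504 and 38278 in mammary gland and 44923, 39652, 48521 and 42773 in liver.

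Some housekeeping groups were uneven and others were not. Of 43 ribosomal protein genes tested, 35 were higher in mammary gland and none was lower, with a median of 1.55, or 1.36 after quantile normalization. Rpl3 had 93273, 110955, 104853 and 110478 in mammary gland and 17209.7, 17447, 14378 and 20575 in liver, and Rpl21 differed by 3.77 ± 0.17. Oxidative phosphorylation genes were higher in 29 of 54 cases (53.7%) and lower in 9 (16.7%), against 39.97% and 22.4% of all genes. Proteasome genes were higher in 11 of 27 (40.7%) and lower in 7 (25.9%), close to the shares of all genes. Immediate early genes were higher in 12 of 19 cases and lower in 1. Klf4 had 4130.2, 9219.5, 7146 and 5072 in mammary gland and 63.7, 145, 22 and 15.1 in liver, and Egr1 had 8803, 17410.3, 17179 and 9887 in mammary gland and 618, 1044, 889 and 647 in liver, with arrays 2 and 3 the high ones for both. Proliferation genes were higher in 6 of 8 cases, among them Pcna at 2.74 ± 0.23 and Cdk1 at 1.69 ± 0.38.

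On the probe set used for each gene, liver transcripts were present on the mammary gland arrays at a few percent of their liver signal. For 71 genes of the plasma protein, coagulation and drug metabolism lists with a mean liver signal of at least 8000, the median signal was 8.29%, 4.77%, 4.63% and 6.43% of the liver mean on mammary gland arrays 1 to 4. On lung arrays 2, 3 and 4 it was 4.58%, 0.685% and 0.780%. The means were 6.03% ± 1.72 for mammary gland (SD, n = 4) and 2.01% ± 2.22 for lung (SD, n = 3), and every mammary gland array was above every lung array. The lowest mammary gland array and the highest lung array were close, and lung array 2 was well above the other lung arrays. The presence of these transcripts was known from earlier results of these data, so the values are a description with no test. As a mean over the 71 genes in place of a median, the mammary gland value was 14.7%. Without any 1 of the mammary gland arrays the mean of the medians was 5.28% to 6.50%.

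**Figure D4:**
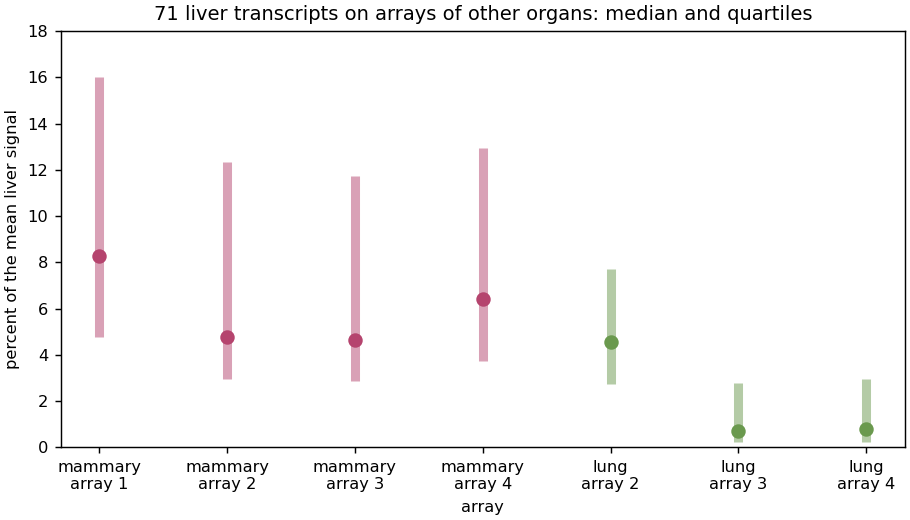
Points are the median over 71 liver transcripts of the signal on each array, as a percent of the mean untreated liver signal, and bars run from the lower to the upper quartile. Mammary gland array 1 has the highest median, 8.29%, and lung arrays 3 and 4 lie under 1%.

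The share was not the same for all 71 genes. Mammary gland array 1 was the highest of its group for 54 of them. The gene-wise mean over the mammary gland arrays was 0.276% for Mug1, 0.334% for Plg and 0.877% for C8b. It was 21.9% for Ttr (transthyretin), 37.96% for Alb, 62.6% for Cp (ceruloplasmin), 88.2% for Rbp4 and 218% for Ces1d, a carboxylesterase that adipocytes also make. The share also depended on the probe set. For Apob it was 6.05%, while another of its probe sets averaged 26.7 in mammary gland and 7199 in liver. For Serpina1 it was 15.6%, while another averaged 953 in mammary gland and 82661 in liver. For Cyp1a2 it was 1.33%, while another averaged 18.8 in mammary gland and 15779 in liver. For Ces1c it was 4.63%, while another averaged 273 in mammary gland and 19852 in liver. Those other probe sets were among the largest differences, and each had a lower share than the probe set used. Other probe sets of the remaining genes were not compared here, so their shares may depend on the probe set as well. For Alb the shares on mammary gland arrays 1 to 4 were 50.2%, 44.9%, 43.6% and 13.1%, so array 4, which had a higher median than arrays 2 and 3, was the lowest for albumin. The same transcripts had medians of 0.814% to 0.958% on the 3 Targretin mammary gland arrays, 3.19% to 9.22% on the 4 with 9cRA and 4.38% to 9.38% on the 3 with 4HPR. On the lung arrays of treated rats they had 0.963% to 1.998% with Targretin, 1.83% to 2.84% with 9cRA and 2.95% to 13.9% with 4HPR. With Targretin every lung array was above every mammary gland array, with 9cRA every one was below, and with 4HPR the organs overlapped, so the order of mammary gland and lung on diet did not hold in all groups. Mammary gland array 1, with the highest share, also had the lowest signals of its group for Lalba, Csn2, Cd24 and Dcn, and the highest for Fabp4, Lpl, Scd and Me1. The part of liver RNA in these values, against transcription in the gland itself and cross-hybridisation, was not tested.

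The same organ comparison in treated rats used other arrays. With Targretin 3173 of 5694 probe sets passed (55.7%), with 9cRA 3346 of 5972 (56%) and with 4HPR 3600 of 5857 (61.5%). Of the 3724 calls on diet, the same call was made for 2556 with Targretin (68.6% of the diet calls and 80.6% of the Targretin calls), for 2857 with 9cRA (76.7% and 85.4%) and for 3069 with 4HPR (82.4% and 85.2%). The opposite call was made for 41, 8 and 2 probe sets. In a test of the interaction of organ and agent over all probe sets, 719 of 6399 passed with Targretin (11.2%), 13 of 6508 with 9cRA (0.2%) and 0 of 6396 with 4HPR (0%), where 479 had an unadjusted p under 0.05 in limma. Of the opposite calls, the 41 all passed with Targretin, 2 of the 8 passed with 9cRA and neither of the 2 passed with 4HPR.

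**Figure D5:**
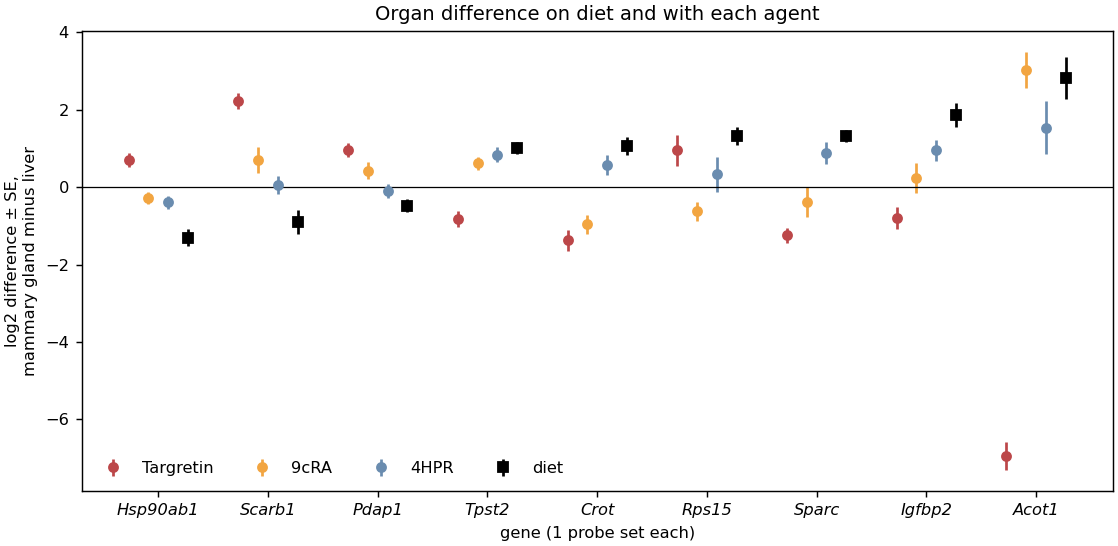
Log2 difference (mammary gland minus liver) with its SE for 9 genes, 1 probe set each, from left to right with Targretin, 9cRA, 4HPR and on diet. Acot1 is the largest change of direction, at -6.95 with Targretin and 2.83 on diet.

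Acot1, a cytosolic acyl-CoA thioesterase, had the largest such interaction. With Targretin it had 137.3, 351.8 and 412.5 in mammary gland and 28756, 46478 and 43435 in liver. On diet it had 1885, 418.4, 272.1 and 1401 in mammary gland and 32.0, 107.8, 77.1 and 85.9 in liver. The organ difference was -6.95 ± 0.36 with Targretin and 2.83 ± 0.54 on diet, an interaction of -9.78 ± 0.74 (adjusted p = 8.85e-08). With 9cRA it was 3.03 ± 0.47, and the interaction of 0.16, from a fit with a pseudocount of its own, did not pass. Crot, the carnitine octanoyltransferase of peroxisomes, changed direction with 2 agents for 1 of its probe sets: the difference was -1.38 ± 0.27 with Targretin and -0.96 ± 0.25 with 9cRA, against 1.06 ± 0.23 on diet. Its other probe set did not change direction, with -1.47 with Targretin, -1.57 with 9cRA and -0.58 on diet, where it did not pass. Scarb1, the receptor of high density lipoprotein, had a difference of 2.23 ± 0.21 with Targretin and -0.89 ± 0.31 on diet for 1 of its probe sets. A second probe set of Scarb1 also changed direction, with 0.72 with Targretin and -1.97 on diet, both passing, and its interaction of 2.70 passed. The remaining probe set had -0.13 with Targretin, which did not pass, and -1.39 on diet. Tpst2, a tyrosylprotein sulfotransferase, differed by -0.82 ± 0.21 with Targretin and 1.01 ± 0.16 on diet. For Sparc (a matrix protein), Igfbp2, Hsp90ab1 (a chaperone) and Rps15 the change of direction held for 1 probe set and not for all: the other 3 probe sets of Sparc were higher in mammary gland by 2.34 to 3.70 with Targretin.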

How the data were processed

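The files hold intensity values on a linear scale, which the authors deposited as the MAS5 signal of each probe set per the labels and the submitters' processing notes. Which version of MAS5 they ran is not given in the sources used here, and no detection calls were used. The 2% trimmed mean was 1501.78 to 1503.29 on every array, so no further scaling was applied. Such global scaling can shift all differences when the organs' signal distributions differ, and low MAS5 signals are noisy. The number of arrays limits the precision. Control probe sets (59) were left out. Of the rest, 7006 had 1 gene symbol in the platform annotation, 308 several and 1426 none; 6985 were found in the RefSeq table and 4736 genes were covered.

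Differences were computed on log2(signal + 39.9), the 10th percentile of the 8 arrays, for probe sets above the 40th percentile of their array on at least 3 of 8 arrays, with limma 3.58.1 in R 4.3.3 (lmFit, eBayes with trend; treat for 2-fold) and Benjamini-Hochberg adjustment over all probe sets tested, at 0.05. A gene is represented by its probe set with the highest mean signal over the 8 arrays. Each agent was fitted apart, with the pseudocount and filter taken from its own arrays, and interactions on the arrays of both organs with the agent and on diet. On simulated data the procedure recovered most 4-fold changes but few of 1.5-fold, and made false calls above the nominal rate. The members, gene lists and pairs were chosen with earlier results of these data known. Candidates for naming were set by rule. They were the 15 largest differences each way, and up to 6 passing members of each list and direction and up to 3 not passing. All pairs, receptors and retinoid genes measured, cell type markers, and up to 8 genes per agent with opposite calls were also candidates. The text names only a part of these, with no stated rule for the part. Fgb, Csn1s2a, Glycam1, Cp and Ces1d, and the motif count for the milk protein list, were chosen after their values were seen. Alternatives are given at the end.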

Additional observations from a re-analysis of the deposited data

Results flagged for a closer look

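Of 254 groups of 4 arrays, 20 held 1 array whose gap to the nearest other was large against the range of the group; chance flags about 1 in 20 groups. Mammary gland array 1 was the one in 7 of them. It was low for Csn2 (6772, with the others at 20879 to 23880), for Lalba (16578, others 37281 to 42238), for Dcn (63080, others 104049 to 106715), for Cpa3 (3092, others 5095 to 5628), for Fcgr2b (639.1, others 1289 to 1356) and for Bdh1 (228.3, others 344.5 to 372.8), and high for Scd (108430, others 76370 to 78886). Mammary gland array 4 was low for Alb (11379, others 37890 to 43645), for Tat (159.8, others 814.8 to 931.2) and for Stat5b (304.3, others 719.3 to 776.6). Array 2 of mammary gland was low for Proc, at 58.8 with the others at 174.9 to 184.5, and array 3 was low for Igfals, at 462.3 with the others at 652.4 to 696.5.

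Liver array 2 stood apart in 4 groups. It was high for Pparg (730.2, others 49.7 to 82.7), for Csn3 (327.2, others 135.2 to 147.8) and for Acta1 (89.9, others 15.8 to 19.7), and low for Rxrb (554.9, others 765.1 to 800.8). Liver array 4 was low for Gpd1 (1967, others 2882 to 3068) and for Pdgfrb (176.6, others 235.8 to 242.9). Liver array 1 was low for Rpl21, at 1721 with the others at 2275 to 2354, and liver array 3 was low for Tdo2, at 24053 with the others at 25411 to 25683.

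Of the probe sets that passed the interaction test of limma (719 with Targretin and 13 with 9cRA), those of 10 named opposite calls are given here, as the organ difference with the agent minus that on diet. With Targretin the change was -9.78 for Acot1, -2.67 for Igfbp2, -2.56 for Sparc, -2.44 for Crot and -1.83 for Tpst2, and it was 3.12 for Scarb1, 2.01 for Hsp90ab1 and 1.44 for Pdap1. With 9cRA it was -2.03 for Crot and -1.95 for Rps15. Each is the value of 1 probe set.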

How the results depend on the processing

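Counts of probe sets kept within 1.5 times the reported count under every alternative run: quantile normalization, array medians, no filter, a stricter filter, a pseudocount 4 times larger, array quality weights, all 43 arrays in the fit, no trend and leaving out each array. Passing probe sets numbered 3398 to 3686 without 1 array (2002 to 2116 higher and 1378 to 1599 lower), and those past 2-fold 1534 to 1751 (823 to 969 higher and 678 to 782 lower). Arrays of the same number were not treated as paired, because the labels do not say that they came from 1 rat. Their residual correlations were -0.0989 to 0.0636, which cannot show whether they did. With the replicate block 3659 probe sets passed, of which 2132 were higher. Without mammary gland array 1 and liver array 2, a choice made after seeing the data, 3582 passed. Of 126 named genes tested, 2237 of 2253 values kept direction and call. Call losses were those of Alb and Igf1, and Rbp4 gained a call; Rbp4 also passed without the same 2 arrays (-0.31, adjusted p = 0.0451).

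Named genes that changed sign had not passed: Mgst1 was -0.16 after quantile normalization and -0.0086 without the 2 arrays, and Stat5b -0.044 after quantile normalization. Without 1 array, A2m ran from -0.061 to 0.044, Krt18 from -0.0028 to 0.30, Lep from -0.19 to 0.034 and Stat5b from -0.076 to 0.37. List medians changed sign in 14 of 612 values, all for lists with a median between -0.33 and 0.13. After quantile normalization the median was -0.013 for skeletal muscle, -0.058 for endothelial and -0.016 for cholangiocyte and stellate genes, and after array median scaling -0.010 for skeletal muscle. Lymphocyte genes had 1.75 under the stricter filter, which leaves fewer of them, and the IGF axis had 0.052 with quality weights and 0.035 without the 2 arrays. Without 1 array, skeletal muscle ran from -0.090 to 0.16, endothelial genes from -0.069 to 0.17, and the IGF axis from -0.12 to 0.094. The share of liver transcripts was 14.7% as a mean over genes, 6.12% after quantile normalization, 6.24% for genes with a liver signal of at least 16000, and 5.28% to 6.50% without 1 array. Opposite calls with a passing interaction numbered 1 with 4HPR under the larger pseudocount, against 0; the cause was not tested.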

Other observations

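The 3 untreated lung arrays show which of the differences above set mammary gland apart from a further organ, as levels with no test (mean ± SD, n = 3 for lung). Some milk and fat cell genes were dim in lung: Lalba had 26.1 ± 6.72 in lung, Csn1s1 76.8 ± 32.1, Csn2 104 ± 74.2 and Fabp4 339 ± 65.3. The adipocyte gene Lpl was not, with 9534 ± 1541 in lung. Basal keratin Krt5 had 18.6 ± 4.12 in lung and the Schwann cell gene S100b 37.8 ± 1.75. Matrix and contractile genes were intermediate or high there, with 5682 ± 743 for Postn, 5484 ± 2799 for Dcn, 14708 ± 2315 for Col1a1 and 11251 ± 3201 for Acta2. Klf4, with 5397 ± 1562 in lung, was near its mammary gland level, and so was Thra with 2102 ± 387. Of the liver genes, Mug1 had 19.3 ± 6.66 and Plg 63.3 ± 16.9 in lung, whereas Aldh1a1 had 21617 ± 5469.6, above both other organs, and Ces1d had 11573 ± 3802, near its level in liver.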
